A study of Homo sapiens with 40 samples.

Results

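The samples described here are H1 human embryonic stem cells that received the control lentivirus, followed over a week. The 6 arrays chosen by the sample titles carry the main comparison, which sets days 5, 6 and 7 (3 arrays, the late window) against days 0, 1 and 2 (3 arrays, the early window). They are 6 of the 40 arrays of the series, and the control course has 8 arrays in all, 1 for each day from 0 to 7. The series followed the knockdown of NANOG, OCT4 or SOX2 by short hairpin RNA (shRNA) in the same way, and its arrays measured RNA levels with bead probes. All groups used here were H1 cells grown on Matrigel, a basement membrane extract, in mTeSR, a feeder-free medium, and were exposed to lentivirus with polybrene, an agent that helps virus enter cells. The control arm carried the virus named H1P, and the arms it is compared with carried shSOX2 (8 arrays) or shNANOG (7 arrays, since day 7 was on another scale). The cells had therefore been exposed to virus and were not untouched. How day 0 relates to the exposure, the cell density, the passage and the times of medium change are not in the labels, so culture time and any of these cannot be told apart.

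Human embryonic stem cells are held in an undifferentiated state by the transcription factors POU5F1 (OCT4), SOX2 and NANOG, together with FGF signalling through the kinase ERK and activin or NODAL signalling through SMAD proteins. A growing culture also adjusts its metabolism: sterol synthesis genes are driven by SREBF2 when membrane cholesterol is low, amino acid enzymes and transporters by ATF4 when amino acids are short, and metallothioneins, small zinc and copper binding proteins, by the metal sensing factor MTF1. Levels below are log2 of background-corrected intensity, a difference of 1 is 2-fold, and a call is a Benjamini-Hochberg adjusted p under 0.05 in limma over 11859 genes.

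Markers of the labelled cell type were present. All 9 embryonic stem cell markers on the array were above background on every late and every early array, and their mean level was 12.24 to 12.42 in the late window and 12.27 to 12.30 in the early window. None of 6 mesendoderm markers was above background on any of these arrays. Of 7 blood and endothelial markers 4 were above it on none, and TEK was above it on all. Of 5 trophoblast markers 3 were above it on none, and GABRP was above it on all. Of 10 fibroblast markers 5 were above background on every array and 3 on none. Their mean level was 7.77 to 7.95 in the late window and 7.96 to 8.00 in the early window, so it was lower late. The members did not move together. THY1 had the largest fall, from 12.22 early to 11.53 late, and its call was lost in 12 of 18 alternative settings. COL1A2 rose from 9.79 to 10.39. Whether fibroblast RNA had a part in the results was not tested. In bulk RNA, fewer cells of a type and less RNA per cell cannot be told apart. The 8 arrays correlated with each other at medians of 0.985 (day 6) to 0.991 (day 4). Each arm is 1 time course with 1 array a day, so the days stand in for replicates, and p-values measure the spread between days. As a check of the arms used for comparison, SOX2 was at 9.86 to 10.40 in the SOX2 shRNA arm against 11.74 to 12.40 in the control arm, and NANOG at 6.48 to 7.80 in the NANOG shRNA arm against 8.42 to 9.25 in the control arm.

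Over the week 422 genes changed in control cells (3.56% of those tested), 167 higher in the late window (1.41%) and 255 lower (2.15%). Most changes were small: 12 of the higher genes and 16 of the lower ones were at least 2-fold apart (0.101% and 0.135%), and the median of all genes was 0.02. At an unadjusted p under 0.05 there were 2143 genes (18.1%). In 420 of the 422 the late arrays did not overlap the early ones, as in 21.8% of all genes (11.8% all above and 10.1% all below); the other 2 were ABRAXAS1 and GAL, named here after their values were seen. Days 3 and 4 were not in the contrast but entered the spread of the fit, and 370 genes were called from the 6 arrays alone. The mean of days 3 and 4 lay between both windows for 93.1% of the called genes and 40.6% of all genes. Called genes were selected for a wide gap between the windows, so these shares are no independent test. A slope over all 8 days, which shares the 6 arrays, called 548 genes (4.62%), 257 rising (2.17%) and 291 falling (2.45%), and 357 of the 422 were among them. The first principal component held 33.3% of the variance and ordered the arrays by day, with scores of -15.54, -14.85, -7.20, -2.43, 2.02, 8.32, 17.40 and 12.28 for days 0 to 7, day 6 alone being out of order. The number of calls depended on single arrays: it was 238 without day 0, 93 without day 1 and 258 without day 7. Without day 7 the genes higher late fell to 63 and the lower ones to 195, so 24.4% of calls were higher, against 39.6% with all arrays.

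**Figure D1:**
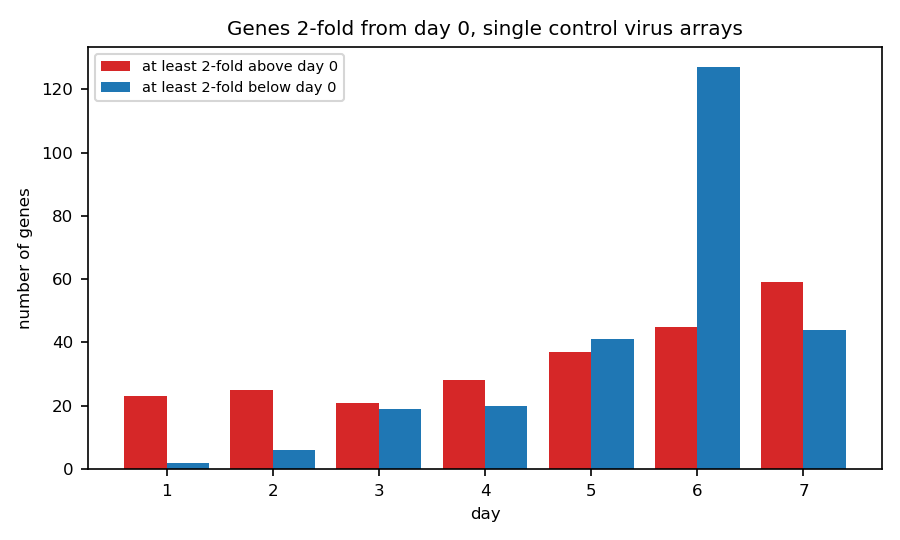
Number of genes at least 2-fold above (red) or below (blue) day 0 on each later day, from single control virus arrays with no replicate and no test. On day 6, 127 genes were 2-fold below day 0, more than on any other day, against 44 on day 7.

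Counted on single arrays against day 0, day 1 had 23 genes at least 2-fold higher (0.194%) and 2 lower (0.0169%). Day 6 had 45 higher (0.379%) and 127 lower (1.07%), and day 7 had 59 higher (0.498%) and 44 lower (0.371%). The day 6 array had the most genes below day 0. Against both neighbouring days, 4 genes were at least 2-fold lower on day 6 and 2 at least 2-fold higher. PHLDA1 was among the lower ones, with 11.53, 10.26 and 11.71 on days 5, 6 and 7, and SORBS2 among the higher ones, with 7.96, 9.29 and 8.28 over the same days. These genes were picked after their values were seen. Without the day 6 array 317 genes were called.

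None of the 3 core stem cell factors was called over the week. POU5F1 stood at 12.63, 12.87 and 12.74 on days 5, 6 and 7, against 12.47, 12.73 and 12.86 on days 0, 1 and 2, and the windows overlapped (log2 change 0.06 ± 0.13 SE, limma adjusted p = 0.866). SOX2 was at 12.14, 12.40 and 12.26 late, against 11.76, 12.01 and 11.98 early, so every late array was above every early one, but the change of 0.35 ± 0.12 was not called (limma adjusted p = 0.122). NANOG was at 8.93, 8.42 and 8.77 late and at 8.91, 9.25 and 9.05 early, overlapping by the day 5 and day 0 arrays (-0.36 ± 0.15, limma adjusted p = 0.212). Of 27 pluripotency genes that passed the filter on dim probes, none rose and 4 fell (1.41% and 2.15% over all genes), with a median of 0.02. Those 4 were LEFTY1, NODAL and GDF3, all of the NODAL branch, and GAL, a secreted peptide. The count was 1 without day 1 or without day 7. LIN28A, an RNA-binding protein (-0.01), and DNMT3B, a DNA methyltransferase (0.14), were not called.

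Metallothioneins had the highest median change of the 32 lists. Of 8 genes of the list that passed the filter, 6 rose and none fell (1.41% and 2.15% over all genes), with a median of 1.21 against 0.02 over all genes. The promoters of the called genes that the RefSeq table holds are shown because the family is known for repeated metal response elements near the start. Capitals mark the core TGCACNC or TGCGCNC on either strand, where N is any base, in the 250 bases before the start (GRCh38.p14, plus strand, chr16:56669564-56669813 for MT1H and chr16:56608334-56608583 for MT2A).
MT1H: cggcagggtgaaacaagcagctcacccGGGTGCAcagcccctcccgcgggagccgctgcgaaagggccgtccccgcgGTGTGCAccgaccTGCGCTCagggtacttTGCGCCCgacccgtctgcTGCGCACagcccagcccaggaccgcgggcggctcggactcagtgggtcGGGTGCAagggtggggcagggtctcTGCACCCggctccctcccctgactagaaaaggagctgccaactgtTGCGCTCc
MT2A: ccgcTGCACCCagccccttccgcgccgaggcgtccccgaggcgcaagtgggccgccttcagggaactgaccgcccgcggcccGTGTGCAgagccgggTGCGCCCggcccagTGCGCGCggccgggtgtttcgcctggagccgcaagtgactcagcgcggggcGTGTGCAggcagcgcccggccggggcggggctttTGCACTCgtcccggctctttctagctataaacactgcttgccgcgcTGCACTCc
The core matched 8 times in the MT1H bases shown and 7 times in those of MT2A, with no overlap between matches. Over the whole 300 bases of each table entry, all 4 members with a promoter in the table held it, as did 29.3% of 27305 promoters, and 8.59% of all promoters held it more than once. A match is a run of letters and not a measured site.

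MT1H stood at 12.49, 12.22 and 12.49 on days 5, 6 and 7, against 10.60, 9.88 and 11.35 on days 0, 1 and 2, with 11.69 and 12.27 on days 3 and 4 between them. Every late array was above every early one, and the lowest was day 1 (log2 change 1.79 ± 0.25 SE, 3.46-fold, limma adjusted p = 0.00182). MT1G was at 12.99, 12.85 and 12.87 late and at 11.49, 11.06 and 12.04 early, again lowest on day 1 (1.37 ± 0.18, adjusted p = 0.00155). MT1E rose by 1.51, MT1F by 1.24, MT2A by 1.18 and MT1M by 0.95, each with its lowest level on day 1 and its windows apart. The exceptions were MT1X, which was at 13.32, 13.11 and 13.05 late and at 13.23, 12.85 and 13.05 early (0.12, adjusted p = 0.693), and the zinc exporter SLC30A1 (0.32, adjusted p = 0.22). Metallothionein genes are close copies of each other, so their probes may share signal, and a further MT1H probe changed by 0.42. Without the day 1 array 4 members were called.

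**Figure D2:**
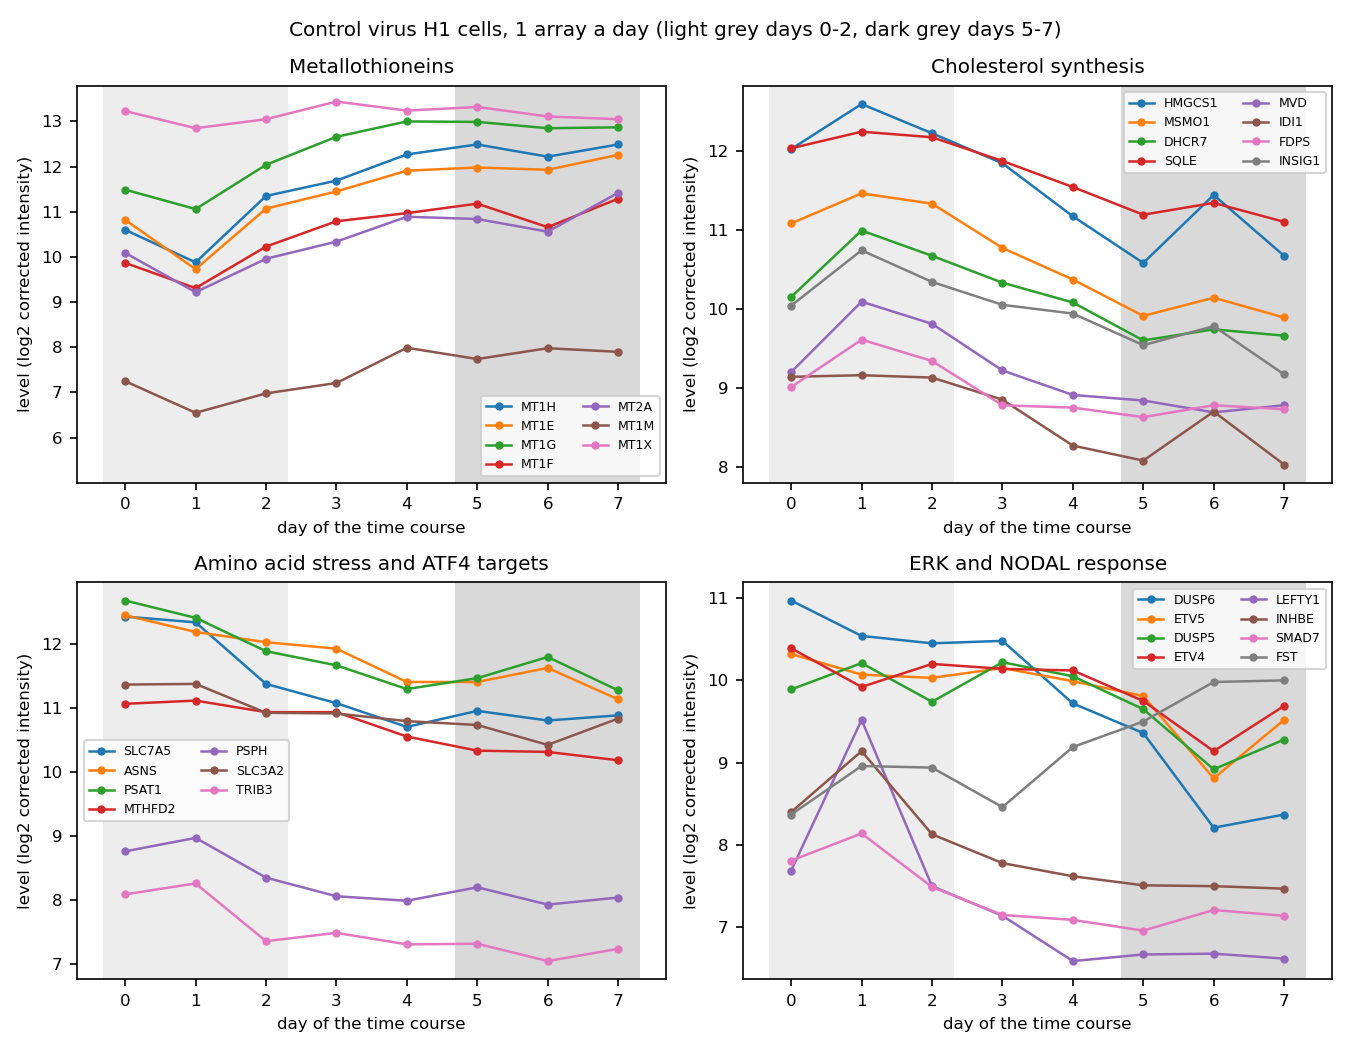
Level (log2 corrected intensity) of called and selected members by day in control virus cells, 1 array a point, with days 0 to 2 in light grey and days 5 to 7 in dark grey. The metallothioneins other than MT1X climbed from their low on day 1, the sterol genes peaked on day 1 or stayed level and then fell, and DUSP6 fell to 8.21 on day 6.

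Of 19 cholesterol synthesis genes that passed the filter none rose and 8 fell (1.41% and 2.15% over all genes), and the list median was -0.54. HMGCS1, which makes the precursor of mevalonate, stood at 10.58, 11.44 and 10.67 on days 5, 6 and 7, against 12.02, 12.59 and 12.22 on days 0, 1 and 2. The windows did not overlap, the highest early value was on day 1 and the highest late one on day 6 (-1.38 ± 0.21, limma adjusted p = 0.00344). MSMO1, a sterol demethylating enzyme, was at 9.91, 10.14 and 9.89 late and at 11.08, 11.46 and 11.33 early, the narrower spread of the pair (-1.31 ± 0.14, adjusted p = 2.73e-04). A further probe of MSMO1 gave -1.65 and another -0.03. SQLE, the squalene epoxidase, fell by 0.93, DHCR7, the last enzyme of the route, by 0.93, MVD, the mevalonate decarboxylase, by 0.93, INSIG1, the sterol-regulated retention factor, by 0.88, IDI1 by 0.87 and FDPS by 0.61. SREBF2, the regulator itself, changed by -0.19 and was not called (adjusted p = 0.464). Without day 1, 4 members were called.

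In the fatty acid list 3 of 14 members fell and none rose (2.15% and 1.41% over all genes; median -0.39). They were the elongase ELOVL6 (-0.69 ± 0.15, limma adjusted p = 0.0165), the phosphatidate phosphatase LPIN1 (-0.68 ± 0.16, adjusted p = 0.027) and the stearoyl-CoA desaturase SCD (-0.65 ± 0.12, adjusted p = 0.00915). SCD stood at 13.12, 13.11 and 13.05 late, below 13.62, 13.82 and 13.79 early. The count was 6 without day 0 and 0 without day 1. The sterol regulatory element TCACNCCAC, searched on both strands, was found in 1 of 17 cholesterol list promoters (that of SREBF2) and in 0 of the 7 called members with a promoter in the table, against 1.1% of all promoters; no match says only that these letters are not in these 300 bases.

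Of 26 genes on the list of amino acid stress and ATF4 targets that passed the filter, 7 fell and none rose (2.15% and 1.41% over all genes; median -0.38). SLC7A5, a leucine transporter subunit, stood at 10.95, 10.80 and 10.88 on days 5, 6 and 7, against 12.42, 12.33 and 11.37 on days 0, 1 and 2. The late arrays lay close together and the early ones did not, with day 2 nearest to the late level (-1.16 ± 0.20, limma adjusted p = 0.00661). Its partner SLC3A2 fell by 0.56. ASNS, the asparagine synthetase, was at 11.40, 11.62 and 11.13 late and at 12.44, 12.18 and 12.02 early (-0.83 ± 0.16, adjusted p = 0.0103). The serine enzymes PSAT1 (-0.81) and PSPH (-0.64), the mitochondrial folate enzyme MTHFD2 (-0.76) and the pseudokinase TRIB3 (-0.70) completed the calls. ATF4 itself (-0.22, adjusted p = 0.332) and DDIT3 (0.29, adjusted p = 0.218) were not called. Outside the list, the related factor ATF5 fell by 1.10. The count of 7 was 3 without day 0, 3 without day 1, 11 without day 2, and 4 without day 5 or without day 7. The element TGATGNAA, on either strand, was found in 5 of 23 promoters of the list, 2 of 6 among called members (ASNS and SLC3A2), against 3.7% of all promoters.

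**Figure D3:**
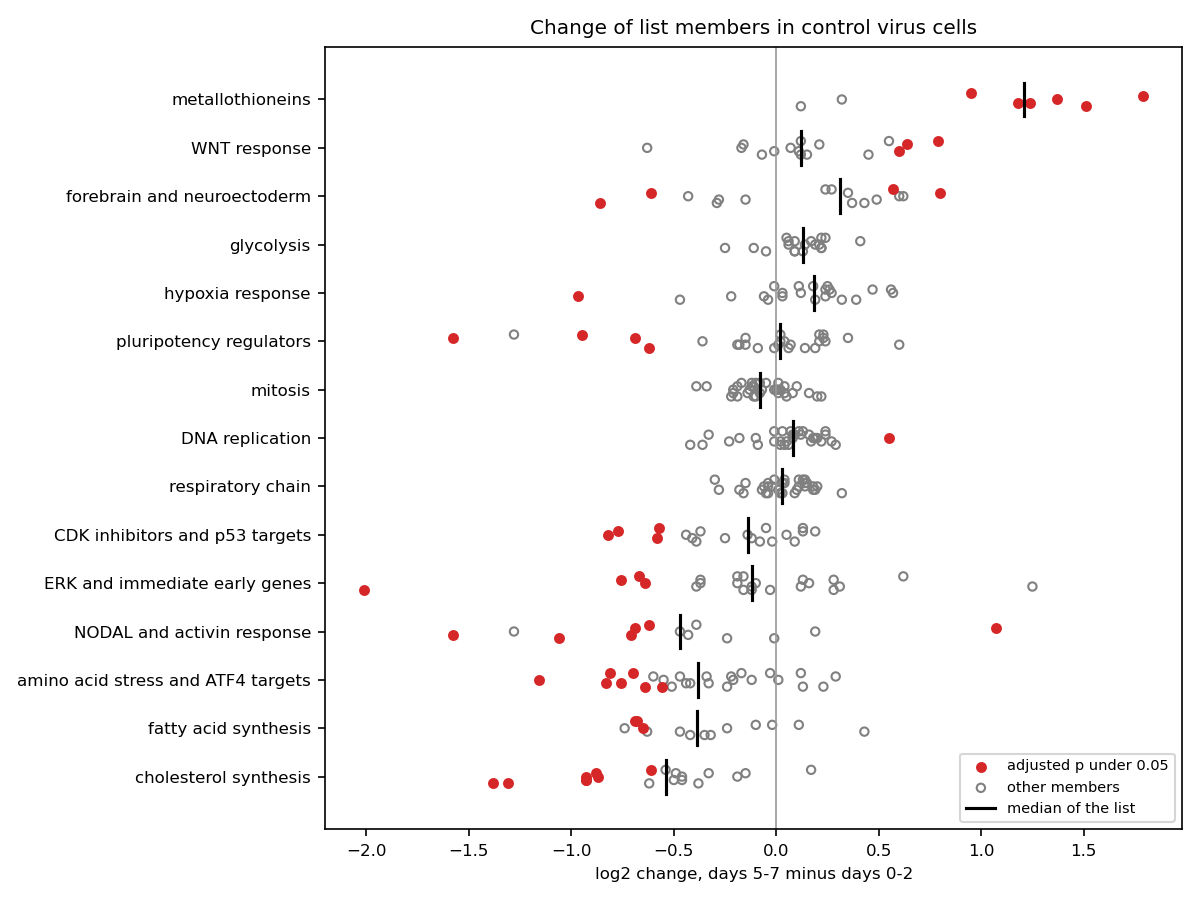
Log2 change, days 5 to 7 minus days 0 to 2, of each member that passed the filter, for the lists shown, with called members in red and the list median as a black bar. Metallothioneins lie to the right with a median of 1.21, cholesterol, fatty acid and ATF4 genes to the left, and mitosis, DNA replication and respiratory chain genes around 0.

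Among genes that answer to ERK, the deepest fall was that of DUSP6, a phosphatase that switches ERK off and is itself an ERK target. It stood at 9.36, 8.21 and 8.37 on days 5, 6 and 7, against 10.97, 10.54 and 10.45 on days 0, 1 and 2, with 10.48 and 9.72 on days 3 and 4. All late arrays were below all early ones, and the fall was under way by day 4 (-2.01 ± 0.25 SE, 4.02-fold, limma adjusted p = 0.00121). A second probe gave -1.53. The ETS factors ETV5 (-0.76) and ETV4 (-0.64) and the phosphatase DUSP5 (-0.67) also fell, each lowest on day 6. Without that array ETV5 changed by -0.47, and none of ETV5, ETV4 and DUSP5 was called. In all, 4 of 23 members fell and none rose (2.15% and 1.41% over all genes; median -0.12), and the count was 1 without day 0 or without day 1, 2 without day 2 or without day 6. Of the calls left without day 6, 1 was DUSP6 and the other was a member not called with all arrays. The feedback inhibitors SPRY2 (-0.39, limma adjusted p = 0.213) and SPRY4 (-0.37, adjusted p = 0.288) were not called. EGR1, an immediate early factor, went the other way without being called, at 11.02, 10.22 and 11.56 late and at 8.22, 10.33 and 10.51 early (1.25, adjusted p = 0.118), the day 0 value being far below the rest.

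Of 13 NODAL and activin genes that passed the filter, 5 fell and 1 rose (2.15% and 1.41% over all genes; median -0.47). LEFTY1, a secreted NODAL inhibitor and NODAL target, was at 6.67, 6.68 and 6.62 late, against 7.69, 9.52 and 7.50 early. Day 1 was far above the other early days, and all late arrays were near the background level of 6.57 (-1.58 ± 0.34, limma adjusted p = 0.0189). Without day 1 the change was -0.94 (adjusted p = 0.0162), and the call was lost in 3 of 18 alternatives. LEFTY2 had the same day 1 peak, at 9.24, and missed the threshold (-1.28, adjusted p = 0.0656). INHBE, an inhibin subunit, fell by 1.06, SMAD7, an inhibitor of the receptors, by 0.71 (a second probe -0.04), and GDF3 by 0.62. NODAL itself was under the background level throughout days 5 to 7 and above it throughout days 0 to 2, so it was at least 1.29-fold lower late (adjusted p = 0.0165). The riser was FST, follistatin, which binds activin and keeps it from its receptor, at 9.50, 9.98 and 10.00 late and at 8.37, 8.96 and 8.94 early (1.07 ± 0.19, adjusted p = 0.00776). The list had 3 calls without day 1.

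Of 16 forebrain and neuroectoderm genes that passed, 2 rose and 2 fell (1.41% and 2.15% over all genes; median 0.31). PAX6, an eye and forebrain factor, was at 6.70, 7.08 and 7.47 late, against 6.49, 6.13 and 6.23 early, where it was below background on every array, so it was at least 1.43-fold higher late (limma adjusted p = 0.0168). LHX5, another forebrain factor, was likewise at least 1.14-fold higher (limma adjusted p = 0.0203). The PAX6 call was lost without day 1 or without day 7. Further probes of PAX6, which did not pass the filter, gave 0.36 and -0.03. SIX3, a forebrain marker, went the other way, with a mean of 6.86 late and 7.16 early. The adhesion molecule CDH2 (-0.86) and the tubulin TUBB3 (-0.61) fell. Outside the list SOX21, a SOX2 relative, rose by 1.32 ± 0.19 (adjusted p = 0.00186), at 10.32, 11.02 and 11.22 late and at 9.30, 9.66 and 9.64 early with no overlap. CYP26A1, which degrades retinoic acid, rose by 1.46 ± 0.27 (adjusted p = 0.00913). Of 16 WNT genes 3 rose and none fell (1.41% and 2.15% over all genes): the inhibitors FRZB (0.79) and SFRP1 (0.60) and the nuclear factor LEF1 (0.64). LEF1 was above background on 3 late arrays and on 1 early one. The neuroectoderm count was 1 without day 1 and 2 without day 6 or without day 7, and the WNT count 1 without day 2 and 0 without day 1 or without day 7.

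The largest single rise was that of COXFA4L2 (older symbol NDUFA4L2), a mitochondrial protein known as a target of hypoxia factors. It stood at 8.82, 8.70 and 9.34 on days 5, 6 and 7, against 6.46, 6.45 and 7.29 on days 0, 1 and 2, and climbed through 7.92 and 8.68 on days 3 and 4. On the early side only day 2 was above background (2.22 ± 0.23, 4.66-fold, limma adjusted p = 2.66e-04). Of 22 members of the hypoxia list none rose and 1 fell, the adenylate kinase AK4 (-0.97), with a median of 0.19; these counts are close to the 1.41% higher and 2.15% lower over all genes. No glycolysis gene of 19 was called (limma; 1 at an unadjusted p under 0.05; median 0.13). PRODH, the proline dehydrogenase, rose by 1.23, and TKT, the transketolase of the pentose phosphate route, fell by 1.11. VSNL1, a calcium sensor, fell by 1.37, DACT1, a WNT modulator, by 1.30, and GLTP, a glycolipid transfer protein, by 1.27.

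Counts in the proliferation lists were near the share of all genes called, 1.41% higher and 2.15% lower. Of 33 DNA replication genes 1 rose, the clamp loader subunit RFC3 (0.55, with 0.08 and 0.25 at its other probes), and none of 34 mitosis genes was called (limma; 2 at an unadjusted p under 0.05; median -0.08). None of 33 respiratory chain genes was called either (3 at an unadjusted p under 0.05; median 0.03). Of 19 cell cycle inhibitors and p53 targets 4 fell and none rose (2.15% and 1.41% over all genes; median -0.14): CDKN1A, which encodes the inhibitor p21 (-0.82), ZMAT3 (-0.77), GADD45A (-0.58) and PHLDA3 (-0.57). CDKN1A stood at 11.02, 10.78 and 10.28 late, below 11.60, 11.40 and 11.54 early. That count was 0 without day 1, 1 without day 0 or without day 7, and 2 without any of the other days. ZMAT3 lost its call in 12 of 18 alternatives (-0.49 without day 6) and PHLDA3 in 10 of 18, and the other probes of ZMAT3 gave -0.37 and -0.11.

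Whether these changes also took place when SOX2 or NANOG was depleted was read from the other arms, which share no array with the control contrast but share days with it. By the fit in which the arms share the spread, 1589 genes changed between the same windows in the SOX2 shRNA arm (13.4%). In the NANOG shRNA arm, whose late window lacked the last day, the count was 2428 (20.5%). That fit called 530 genes in the control arm, against 422 by the fit on the control arrays alone. Of the 422 genes called in control cells, 88.9% had a change of the same sign in the SOX2 shRNA arm, as did 66.5% of all genes, and 82.5% in the NANOG shRNA arm, as did 62.7% of all genes. The change itself differed between the control and the SOX2 shRNA arm for 51 genes (0.430% of all), 13 of them among the 422. With the day as a block, which the labels share between arms, it differed for 255 genes (2.15%). Between the control and the NANOG shRNA arm it differed for 675 genes (5.69%), 77 of them among the 422, and for 1096 (9.24%) with the block.

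**Figure D4:**
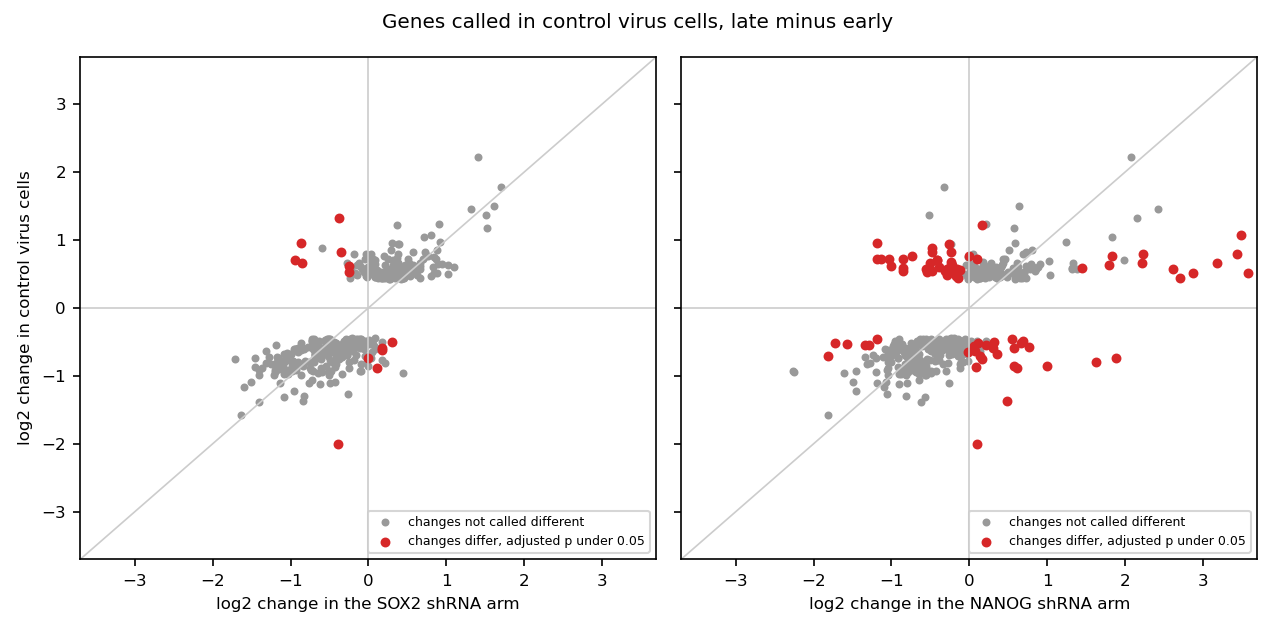
Log2 change, late minus early, of the genes called in control virus cells (vertical) against the change in the SOX2 shRNA arm (left panel) and the NANOG shRNA arm (right panel), 1 point a gene, with a Y-linked gene left out. Red points are genes whose changes differ between the arms, such as DUSP6, at -2.01 in control cells, -0.39 in the SOX2 shRNA arm and 0.10 in the NANOG shRNA arm.

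Of the 8 metallothionein list genes 6 rose in the control arm by the fit on the control arrays alone (limma). By the fit in which the arms share the spread, 4 rose in the SOX2 shRNA arm and 0 in the NANOG shRNA arm. On that fit MT1E, MT1G and MT2A lost their control call, so the counts do not rank the control and SOX2 shRNA arms. The list medians were 1.21 in the control arm, 1.21 in the SOX2 shRNA arm and -0.01 in the NANOG shRNA arm. There MT1H had levels of 10.73, 8.33 and 8.80 on days 0, 1 and 2 and 8.90 on day 6, so the low of day 1 was shared by the 3 arms and the level stayed below that of day 0 afterwards. The difference between the control and NANOG shRNA changes of MT1H was 2.13 ± 0.66 (limma adjusted p = 0.0568), and it passed with the day as a block (2.13, adjusted p = 0.00156), as did that of MT1G (1.93, adjusted p = 0.00592). The block also added calls against the NANOG shRNA arm for CYP26A1 (-1.19, adjusted p = 1.60e-04), FIGNL2 (-0.91, adjusted p = 0.00914), HMGCS1 (-0.72, adjusted p = 0.0384) and MSMO1 (-0.70, adjusted p = 0.00491). The difference from the SOX2 shRNA arm was 0.09 ± 0.62 for MT1H (adjusted p = 0.984). Cholesterol genes had medians of -0.54 in the control arm, -0.52 in the SOX2 shRNA arm and -0.24 in the NANOG shRNA arm. The HMGCS1 peak of day 1 was present in all arms, at 12.59 in the control arm, 12.75 in the SOX2 shRNA arm and 12.69 in the NANOG shRNA arm. The LEFTY1 peak was too, at 9.52 in the control arm, 10.16 in the SOX2 shRNA arm and 9.56 in the NANOG shRNA arm.

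**Figure D5:**
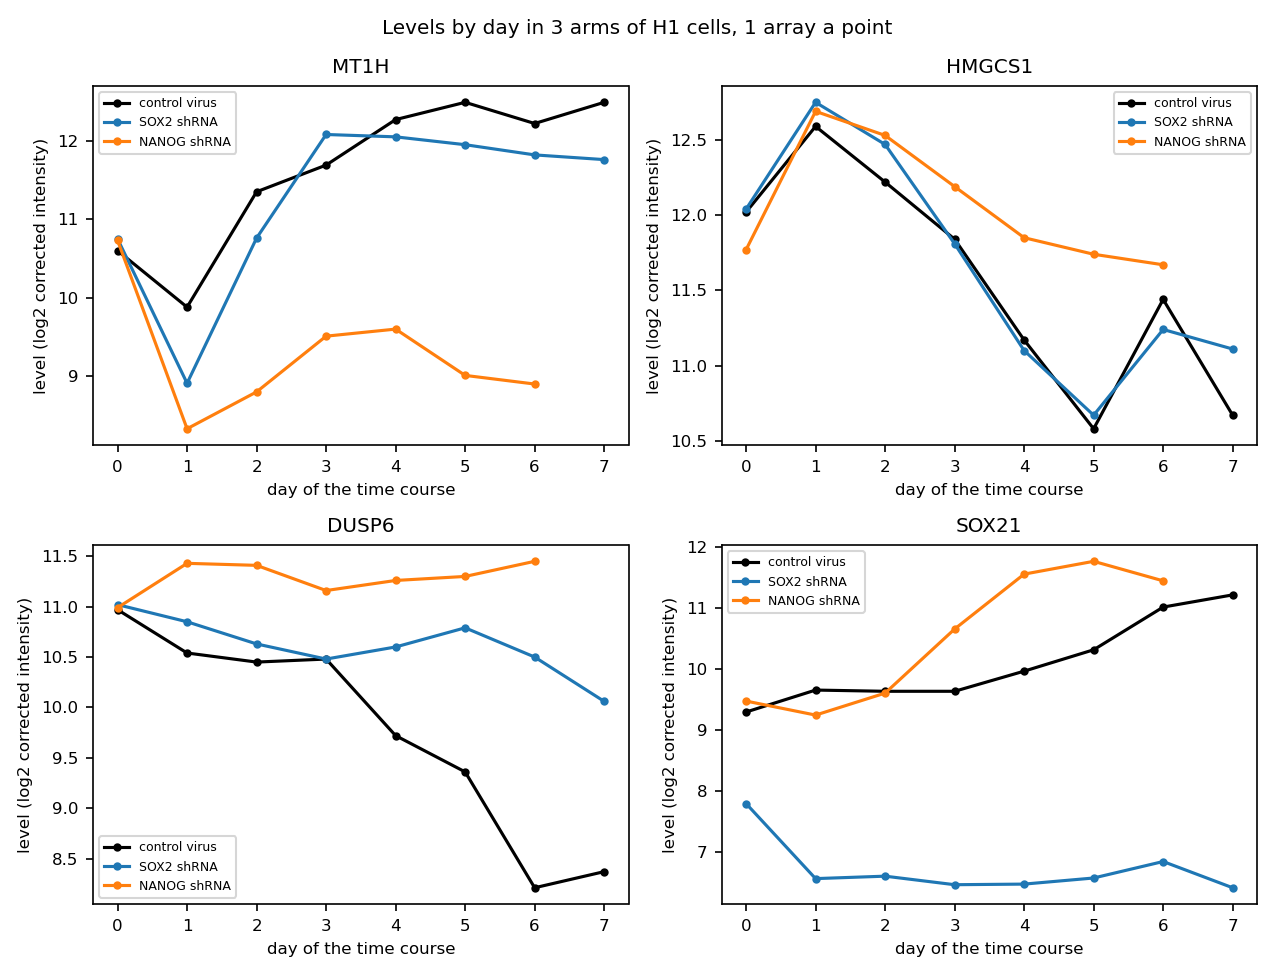
Level (log2 corrected intensity) of MT1H, HMGCS1, DUSP6 and SOX21 by day in the control virus arm (black), the SOX2 shRNA arm (blue) and the NANOG shRNA arm (orange, to day 6), 1 array a point. DUSP6 lies below both other arms from day 4 on in control cells, and SOX21 climbs in the control and NANOG shRNA arms and is low throughout in the SOX2 shRNA arm.

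DUSP6 fell in control cells and in neither of the other arms by the test: its level on days 5 and 6 was 9.36 and 8.21 in the control arm, 10.79 and 10.50 in the SOX2 shRNA arm and 11.30 and 11.45 in the NANOG shRNA arm. The changes differed by -1.62 ± 0.33 from the SOX2 shRNA arm (limma adjusted p = 0.0288) and by -2.10 ± 0.35 from the NANOG shRNA arm (adjusted p = 3.88e-04). SOX21 differed from the SOX2 shRNA arm by 1.70 ± 0.36 (adjusted p = 0.0336); there it was at 7.80 on day 0 and at 6.58, 6.85 and 6.42 on days 5, 6 and 7. PAX6 rose in control cells far less than in the NANOG shRNA arm, where it reached 10.45 on day 6 against 7.08 in control cells that day, a difference of changes of -2.64 ± 0.32 (adjusted p = 1.20e-05). COXFA4L2 rose in every arm, by 2.22 in control cells, 1.41 in the SOX2 shRNA arm and 2.08 in the NANOG shRNA arm. With the day as a block its change differed from that of the SOX2 shRNA arm (0.81, adjusted p = 0.0170; 0.392 without the block), as did those of GLTP (-0.26 in that arm, adjusted p = 0.00388), PRODH (0.86, adjusted p = 0.0364) and SMAD7 (-0.67, adjusted p = 0.0467).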

How the data were processed

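RNA of H1 cells was labelled with biotin and measured on 1-colour Illumina bead arrays, per the labels. The authors deposited probe intensity values on a linear scale; no source used here names their software, normalization or genome build. The columns look quantile normalized before deposit, since 98.4% or more of any used column's values recur in the first control column. The NANOG shRNA column of day 7 (median 6.8) is on another scale and was left out. The OCT4 shRNA arrays (16 columns) and 80 columns of a further table that match no label were not used.

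Intensities were corrected by normexp (offset 50) and taken to log2. Background is an intensity of 144.8, set at the 99th percentile (by median and robust SD) of 437 probes for olfactory receptors. A probe passed when above it on at least 3 of the 8 control arrays (15787 probes). A gene is represented by its brightest passing probe, and 3108 of 11859 genes had several. A gene below background on every array of a window has only a bound, written "at least". Probes were named by the platform annotation: 30113 of 47323 had 1 symbol, 8 several and 17202 none.

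Genes were tested by lmFit and eBayes of limma 3.58.1, under R 4.3.3: windows and slope on the 8 control arrays, and differences of changes on all 23 arrays, where the values of the shRNA arms come from. The number of arrays limits the precision. The fits were tested on simulated data. Arms share the day: deviations of same-day control and SOX2 shRNA arrays correlated at 0.128 to 0.377, and of control and NANOG shRNA arrays at 0.099 to 0.331, where days 3 and 4 are equal by construction.

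Members, windows, the 32 gene lists, filter, offset and background level were chosen with earlier results of these data known. Named genes are POU5F1, NANOG, SOX2, the 12 largest rises and 12 largest falls among calls with windows apart and a slope of the same sign, and up to 4 calls of each list (or the member of smallest p); 1 Y-linked gene among the rises is left out, which leaves 11. Other genes named are list members, or are said to be chosen after their values were seen.

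Promoters (250 bases before to 50 after the start) are RefSeq's, GRCh38.p14. The 3 motif searches reported were set once and not altered. A further motif, the CCAAT box, was tried on the cholesterol promoters after the sterol element had given no match among called members and after their letters had been read; it was chosen for what was seen and is not reported. Alternatives tried were no correction, another offset, other filters, single probes, renewed quantile normalization, other windows, a shared spread, trend and robust eBayes, array weights, the day as a block and each array left out.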

Additional observations from a re-analysis of the deposited data

Results flagged for a closer look

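Results are listed here because the change over the week, late minus early, differed between arms by limma's test of the difference itself, given as control change minus shRNA change on the log2 scale, over the named genes. Against the SOX2 shRNA arm these were SOX21 (1.70), DUSP6 (-1.62) and the integrin subunit ITGB1 (-0.79). ITGB1 fell in control cells (-0.50) and had 0.30 in the SOX2 shRNA arm.

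The late window of the NANOG shRNA arm was days 5 and 6 alone. Against that arm, the change in control cells was the higher one for POU5F1 (1.25), PRODH (1.07) and the autophagy receptor SQSTM1 (0.97). It was the lower one for PAX6 (-2.64), FST (-2.43), DUSP6 (-2.10), LHX5 (-2.05), VSNL1 (-1.86), FRZB (-1.45), CDH2 (-1.43), GADD45A (-1.35), TFAP2A (-1.30), ID3 (-1.17), LEF1 (-1.16), LPIN1 (-1.04), SMAD7 (-0.85) and BST2 (-0.69). Among these PAX6, FST, LHX5, FRZB and LEF1 rose in both arms, and more in the NANOG shRNA arm, where the changes were 3.44, 3.50, 2.62, 2.24 and 1.80. GADD45A and ID3 fell in control cells (-0.58 and -0.48) and rose in the NANOG shRNA arm (0.77 and 0.69).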

How the results depend on the processing

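The count of 422 genes was 230 with a normexp offset of 16, 248 with days 4 to 7 set against days 0 to 3, and 765 with array weights; it stayed within 1.5 times under the other planned settings. Leaving out 1 array gave 93 (day 1) to 373 (day 2) genes, with 238 without day 0 and 258 without day 7, of which 63 were higher and 195 lower. For the slope, leaving out 1 array gave 201 (day 1) to 513 (day 3) genes, with 310 without day 5. The 51 genes whose change differed from the SOX2 shRNA arm became 255 with the day as replicate block, and 3 to 103 with 1 array left out: 3, 22 and 9 without control days 0, 1 and 7, and 13, 4, 103, 4 and 14 without SOX2 shRNA days 0, 1, 2, 5 and 6. The 675 that differed from the NANOG shRNA arm became 1096 with the block, and 241 (without NANOG shRNA day 6) to 710 with 1 array left out. Of 61 named genes called, 24 kept the call under all 18 alternatives, DUSP6, MT1H, HMGCS1, MSMO1 and SOX21 among them. COXFA4L2 kept it under 17 and was not tested where every control array had to be above background. None of the 61 changed direction; leaving out day 1 ended the most calls. Signal over background limits NODAL, LEFTY1, PAX6, LHX5, LEF1, COXFA4L2, DACT1 and TFAP2A, which lay near it in at least 1 window. With 1 culture per arm, what a second culture would show was not measured.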

Other observations

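Genes in this section were chosen after their values were seen. ABCA1 and LRP8 were not tested for a link to the sterol synthesis genes whose RNA fell. ABCA1, which exports cholesterol from cells, was at 7.86, 8.16 and 8.03 on days 5, 6 and 7. On days 0, 1 and 2 it was at 7.10, 6.98 and 7.06, with no overlap (0.97 ± 0.13, limma adjusted p = 0.00155). It changed by 0.92 in the SOX2 shRNA arm and by 1.25 in the NANOG shRNA arm. LRP8, a lipoprotein receptor, was at 10.13, 10.05 and 10.11 late and at 11.09, 11.20 and 10.91 early (-0.97 ± 0.13, adjusted p = 0.00155). The zinc importers SLC39A8 (-0.75 ± 0.18, adjusted p = 0.0344) and SLC39A14 (-0.69 ± 0.15, adjusted p = 0.0188) fell. Other zinc importers are not given here, and a link to the rise of metallothioneins was not tested. SLC39A14 stood at 9.52, 9.53 and 9.32 late and at 10.40, 10.23 and 9.82 early, without overlap.

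A further set of genes was low on days 5 and 6 and higher again on day 7. ZNF394 was at 10.36, 10.02 and 11.26 on days 5, 6 and 7, against 11.62, 11.47 and 11.37 on days 0, 1 and 2, and TMEM17 at 10.97, 10.58 and 11.45, against 12.17, 11.85 and 11.79. TDP1 (-0.92), SEMA3E (-0.94), HNRNPU (-0.91) and DUSP19 (-0.93) had the same shape. The changes of these 6 genes were -0.93 to -1.20 in the SOX2 shRNA arm and -0.62 to -0.79 in the NANOG shRNA arm.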
